A study of Homo sapiens with 12 samples.

Results

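The 10 scavenger receptors described here were taken by gene symbol from a table of 20307 genes, and each symbol matched 1 row: MSR1, MARCO, CD36, SCARB1, SCARB2, OLR1, CD163, MRC1, STAB1 and CD68. They were followed through 12 RNA-seq libraries, 3 in each of 4 groups, from a pair of established human cell lines. THP-1, a monocytic leukaemia line labelled WT, had been treated with the phorbol ester PMA for 24 h, which gives the line macrophage features, and then kept for 48 h with H1299 cells labelled DCBLD2 or with H1299 cells labelled control. The THP-1 groups are named after these H1299 cells, as THP-1 labelled DCBLD2 and THP-1 labelled control. H1299, a non-small-cell lung carcinoma line, was profiled as a group labelled DCBLD2 overexpression and a group labelled WT, called labelled control here. Contact between the lines is uncertain, because 1 text of the series names co-culture and the labels of single samples name supernatant. The labels name no empty construct for the control. No THP-1 group without PMA or without H1299 was analysed here.

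Scavenger receptors are surface proteins that bind modified lipoproteins, polyanions, microbes or dying cells and carry them inward for degradation. Macrophages use them to clear debris and, when loaded with oxidised lipoprotein, to take up cholesterol. The family has several structural classes: collagen-like trimers (MSR1, MARCO), proteins anchored at both ends (CD36, SCARB1, SCARB2), a lectin-like receptor for oxidised low-density lipoprotein (OLR1), scavenger receptors rich in cysteine (CD163), a mannose receptor (MRC1), a very large clearance receptor (STAB1) and the mucin-like lysosomal protein CD68.

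DCBLD2, the gene the labels name, went against the labels of the H1299 groups. It held 105, 98.2 and 92.5 TPM in H1299 labelled DCBLD2 and 247, 148 and 196 TPM in H1299 labelled control. Groups are therefore called by their labels throughout, and every direction is that of the label. TPM, a level scaled per length and to a constant library total, serves for levels, and each library had at least 14578887 estimated reads. Whether replicates were separate cultures is not in the labels, so each p-value measures only the spread among these libraries, which may be technical. That spread was small in THP-1, where pairs of replicates gave a chi-square per gene of 1.55 to 2.30, against 10.8 to 36.6 in H1299.

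The cell line labels were checked against marker lists. Of 12 myeloid markers, 11 averaged at least 1 TPM in each THP-1 group, and their summed level was 9585 to 9749 TPM in THP-1 labelled DCBLD2 and 8041 to 8089 TPM in THP-1 labelled control. All 12 were tested in THP-1, and 9 were higher and 3 lower in THP-1 labelled DCBLD2, where 34.5% of all genes tested were higher and 33.6% lower. In H1299 the same sum was at most 4.70 TPM, and PTPRC and AIF1 were listed at 0. The listed keratins that were high in H1299 (KRT8, KRT18 and KRT80) averaged at most 1.01 TPM in either THP-1 group. KRT19 averaged at most 0.177 TPM in any group, H1299 included. KRT18 averaged 1.01 TPM in THP-1 labelled DCBLD2 and 0.204 TPM in THP-1 labelled control. It averaged 938 TPM in H1299 labelled DCBLD2 and 1379 TPM in H1299 labelled control. The 12 carcinoma markers summed to 169 to 180 TPM in THP-1 labelled DCBLD2 and to 219 to 232 TPM in THP-1 labelled control. Tests were made for 8 of them in THP-1 and called 2 higher and 5 lower in THP-1 labelled DCBLD2, against the same shares of all genes. Most of the carcinoma sum was CAV1, which averaged 110 TPM in THP-1 labelled DCBLD2 and 146 TPM in THP-1 labelled control. CAV2, AXL, YAP1, EGFR and DSP also averaged lower in THP-1 labelled DCBLD2. KRT8, KRT18, KRT80, CLDN1 and TEAD1 averaged higher there, and KRT19 was listed at 0 in both THP-1 groups. Carry-over of H1299 RNA was not tested. The 5 lymphocyte markers summed to at most 8.90 TPM in any THP-1 library. The 5 endothelial markers summed to 141 to 150 TPM in THP-1 labelled DCBLD2 and to 172 to 175 TPM in THP-1 labelled control, nearly all of it PECAM1, which monocytes also make. The mitochondrial share of reads was 2.46 to 2.58% in THP-1 labelled DCBLD2 and 3.48 to 3.51% in THP-1 labelled control, and the ribosomal protein share was 5.52 to 5.82% in THP-1 labelled DCBLD2 and 3.99 to 4.02% in THP-1 labelled control. Their part in the receptor results was not tested.

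Levels placed the 10 receptors in a fixed order within each THP-1 group, with no overlap of neighbouring ranges. In THP-1 labelled DCBLD2 the order of mean TPM was CD68, SCARB2, MSR1, SCARB1, CD36, OLR1, MARCO, CD163, STAB1 and MRC1. In THP-1 labelled control SCARB1 stood above MSR1 and MARCO above OLR1, and the other places were the same. In both H1299 groups CD68, SCARB1 and SCARB2 came first in that order, and the other 7 receptors were at 0.489 TPM or less in every library. The receptors summed to 471 to 500 TPM in THP-1 labelled DCBLD2 and to 476 to 510 TPM in THP-1 labelled control, so the sums overlapped. CD68 made up 58.6 to 61.0% of that sum in THP-1 labelled DCBLD2 and 63.6 to 65.6% in THP-1 labelled control. In H1299 the sum was 314 to 329 TPM in the group labelled DCBLD2 and 243 to 258 TPM in the group labelled control.

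**Figure D1:**
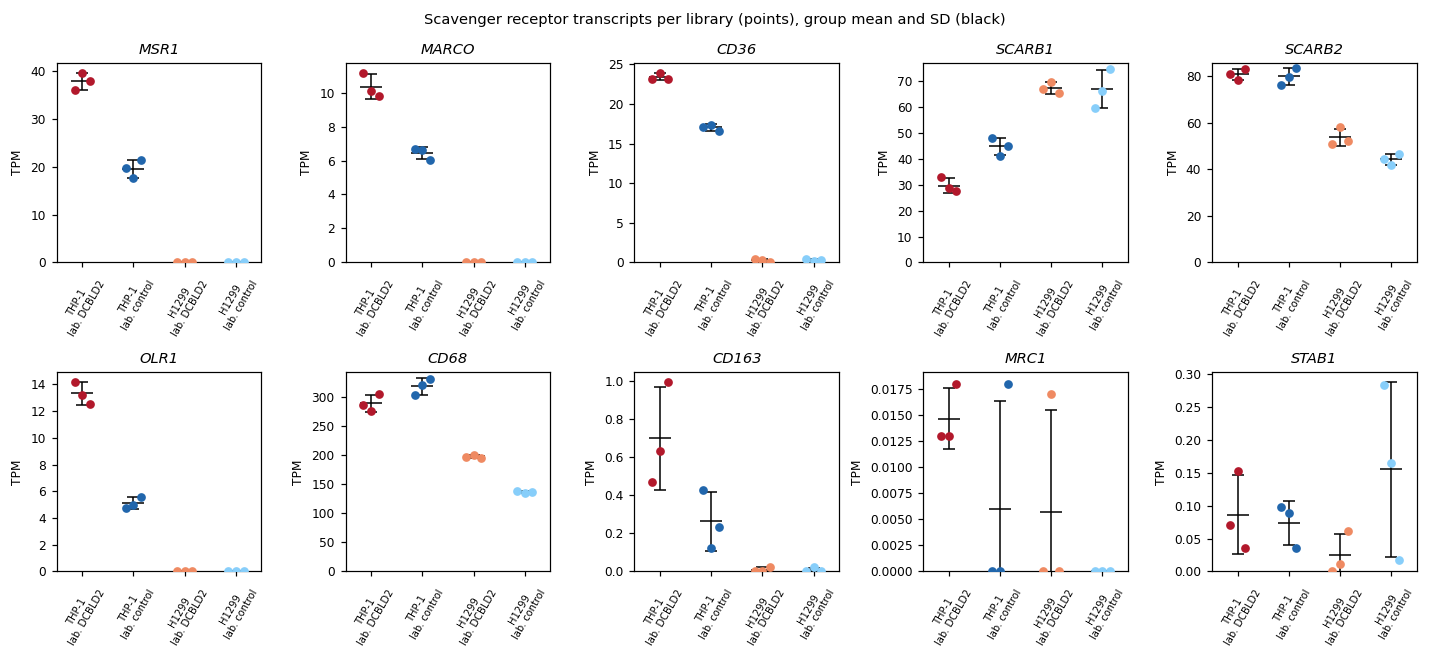
TPM (vertical axis, a scale of its own for each receptor) in the 3 libraries of each group as coloured points, with the group mean and SD in black. MSR1, MARCO, CD36 and OLR1 lie at or near 0 TPM in both H1299 groups, while CD68, SCARB1 and SCARB2 have at least 27.5 TPM in every library of all 4 groups.

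Start-site sequence was found for 6 of the 10 receptors in the RefSeq promoter table of GRCh38.p14, as windows of 300 bases around the start. A pair is shown to set a receptor present in both lines beside one listed at 0 in H1299, with each CG dinucleotide in capitals. The SCARB2 window (chr4:76213775-76214074, minus strand) held 44 CG dinucleotides and 79.3% G or C, against medians of 14 and 58.7% over 35116 windows. The MARCO window (chr2:118941944-118942243, plus strand) held 6 CG dinucleotides and 53.0% G or C.
SCARB2: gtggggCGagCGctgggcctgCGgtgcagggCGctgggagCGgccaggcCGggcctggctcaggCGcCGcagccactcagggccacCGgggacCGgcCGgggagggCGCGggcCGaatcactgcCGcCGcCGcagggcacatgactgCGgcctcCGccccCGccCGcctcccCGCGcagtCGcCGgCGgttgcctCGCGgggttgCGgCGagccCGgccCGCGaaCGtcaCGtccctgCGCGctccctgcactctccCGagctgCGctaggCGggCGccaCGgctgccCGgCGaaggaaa
MARCO: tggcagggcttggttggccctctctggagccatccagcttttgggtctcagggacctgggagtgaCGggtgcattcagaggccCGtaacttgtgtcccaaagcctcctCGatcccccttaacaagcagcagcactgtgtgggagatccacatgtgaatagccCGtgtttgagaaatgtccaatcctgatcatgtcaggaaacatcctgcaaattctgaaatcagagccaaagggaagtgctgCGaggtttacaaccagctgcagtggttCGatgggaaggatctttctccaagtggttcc
Of the other matched windows, those of CD36 held 1 to 3 CG dinucleotides, those of CD163 and CD68 held 2 each, and that of STAB1 held 13. The window of CD68, a gene present in both lines, was thus as poor in CG as those of CD36 and CD163.

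A second pair is shown for motifs known from myeloid genes, read on both strands. The motifs were a PU box (GAGGAA, in 27.9% of all windows), an AP-1 element (TGANTCA, 7.71%), the interferon-stimulated response element (3.57%) and an E-box (CACGTG, 7.26%). Capitals mark the matches, none of which overlap, here on the reverse strand for the PU box and the interferon element. The CD163 window (chr12:7503728-7504027, minus strand) matched a PU box and an interferon element, and the CD68 window (chr17:7579388-7579687, plus strand) matched an AP-1 element and a PU box.
CD163: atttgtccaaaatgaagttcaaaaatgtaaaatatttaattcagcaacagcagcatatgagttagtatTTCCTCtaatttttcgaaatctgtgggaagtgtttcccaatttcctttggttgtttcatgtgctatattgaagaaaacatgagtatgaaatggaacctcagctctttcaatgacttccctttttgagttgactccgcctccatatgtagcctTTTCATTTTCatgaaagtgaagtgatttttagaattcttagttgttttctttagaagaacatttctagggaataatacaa
CD68: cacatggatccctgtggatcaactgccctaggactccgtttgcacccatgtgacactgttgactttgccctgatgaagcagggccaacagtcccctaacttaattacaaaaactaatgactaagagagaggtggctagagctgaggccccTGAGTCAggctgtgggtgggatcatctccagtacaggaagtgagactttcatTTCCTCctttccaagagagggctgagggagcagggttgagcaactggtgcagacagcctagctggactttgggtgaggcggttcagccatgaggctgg
The PU box was also found in the STAB1 window and in 4 of the 6 CD36 windows, some of which overlap, and an AP-1 element in 1 CD36 window. No E-box was found in any of these windows. A match is a run of letters in the window and was not tied to the levels below.

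The macrophage comparison asked whether THP-1 differed by the label of the H1299 cells it was kept with. The collagen-like receptors MSR1 and MARCO, the lipid receptor CD36 and the oxidised-lipoprotein receptor OLR1 were higher in THP-1 labelled DCBLD2, by 1.37-fold for CD36 to 2.69-fold for OLR1, and the high-density lipoprotein receptor SCARB1 was lower. CD163 was also higher, at a very low level. SCARB2 and CD68 passed the test with changes of at most 1.11-fold. Of 8 receptors tested, 6 were called higher and 2 lower at an adjusted p under 0.05 by edgeR's quasi-likelihood test, where 34.5% of 13120 genes were called higher and 33.6% lower. Without CD163, which passed the filter on low counts only through its higher group, 5 of 7 were higher. Their median log2 fold change, with CD163 left out, was the 0.45 of CD36, against 0.00 over all genes tested. In bulk samples, fewer cells that make a receptor and less of its RNA per cell cannot be told apart.

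MSR1 (ENSG00000038945, chromosome 8, 16107878 to 16567490, minus strand of GRCh38), which binds acetylated lipoprotein, had 36.1, 39.8 and 37.9 TPM in THP-1 labelled DCBLD2, against 19.8, 17.6 and 21.4 TPM in THP-1 labelled control. The groups did not overlap, as was so, in the higher direction, for 29.9% of genes. MSR1 changed by 1.02 ± 0.05 (SE) on the log2 scale, at an edgeR adjusted p of 6.48e-15. MARCO (ENSG00000019169, chromosome 2, 118942166 to 118994660, plus strand), which binds bacteria and particles, had 11.2, 10.1 and 9.78 TPM in THP-1 labelled DCBLD2, against 6.70, 6.59 and 6.01 TPM in THP-1 labelled control. Every labelled DCBLD2 library was again above every labelled control library. MARCO changed by 0.72 ± 0.10 (SE) on the log2 scale, at an edgeR adjusted p of 6.95e-07.

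OLR1 (ENSG00000173391, chromosome 12, 10158301 to 10172138, minus strand) had the largest log2 fold change of the 8 receptors tested. It held 14.2, 13.2 and 12.5 TPM in THP-1 labelled DCBLD2, against 4.78, 4.97 and 5.59 TPM in THP-1 labelled control. The lowest labelled DCBLD2 library had over 2 times the TPM of the highest labelled control library. On the log2 scale the change was 1.43 ± 0.10 (SE), at an edgeR adjusted p of 1.47e-12, and its size was above that of 97.0% of genes tested. CD36 (ENSG00000135218, chromosome 7, 80369575 to 80679277, plus strand), which takes up long-chain fatty acids and oxidised lipoprotein, had 23.2, 24.0 and 23.2 TPM in THP-1 labelled DCBLD2, against 17.2, 17.4 and 16.6 TPM in THP-1 labelled control. Its groups were apart and each was narrow. For CD36 the log2 change was 0.45 ± 0.05 (SE), at an edgeR adjusted p of 1.66e-08.

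SCARB1 (ENSG00000073060, chromosome 12, 124776856 to 124882668, minus strand), which moves cholesterol esters between high-density lipoprotein and cells, ran the other way. It had 32.9, 28.7 and 27.5 TPM in THP-1 labelled DCBLD2, against 48.2, 41.3 and 45.0 TPM in THP-1 labelled control. No labelled DCBLD2 library reached the lowest labelled control library, a separation seen in the lower direction for 35.0% of genes. SCARB1 changed by -0.63 ± 0.04 (SE) on the log2 scale, at an edgeR adjusted p of 3.20e-12.

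SCARB2 (ENSG00000138760, chromosome 4, 76158733 to 76234536, minus strand), a membrane protein of lysosomes, had 80.95, 78.5 and 83.1 TPM in THP-1 labelled DCBLD2, against 76.4, 80.0 and 83.7 TPM in THP-1 labelled control. The groups overlapped. The log2 fold change in counts was 0.15 ± 0.02 (SE), at an edgeR adjusted p of 2.84e-06, but on log2(TPM + 1) it was 0.02, with an adjusted p of 0.757 by limma. CD68 (ENSG00000129226, chromosome 17, 7579467 to 7582113, plus strand), a lysosomal glycoprotein used as a macrophage marker, had 287, 276 and 305 TPM in THP-1 labelled DCBLD2, against 303, 321 and 331 TPM in THP-1 labelled control. These groups also overlapped, by the pair of libraries at 305 and 303 TPM. CD68 changed by -0.08 ± 0.03 (SE) on the log2 scale, at an edgeR adjusted p of 0.00827, and the call was lost without labelled control replicate 3 (adjusted p of 0.0909) or labelled DCBLD2 replicate 2 (0.107). Of the exon bases of CD68, 81.7% are shared with the same-strand transcript AC016876.2 in GENCODE 29, which was not analysed here, so its counts carry that uncertainty.

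CD163 (ENSG00000177575, chromosome 12, 7470813 to 7503893, minus strand), the haemoglobin-haptoglobin receptor, rested on few reads. It had 25, 37 and 34 reads in THP-1 labelled DCBLD2, against 21, 6 and 10 reads in THP-1 labelled control, or 0.468 to 0.995 TPM against 0.125 to 0.427 TPM. The groups did not overlap, but labelled control replicate 1 lay close to the lowest labelled DCBLD2 library. CD163 changed by 1.22 ± 0.35 (SE) on the log2 scale, at an edgeR adjusted p of 0.00328, and it was 1.75 without labelled control replicate 1 and 0.92 without labelled control replicate 2. On log2(TPM + 1), a scale that shrinks changes of low genes, the difference was 0.42.

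MRC1 (ENSG00000260314, chromosome 10, 17809344 to 17911170, plus strand), the macrophage mannose receptor, did not pass the filter. It had 1 read in each library of THP-1 labelled DCBLD2, against 0, 0 and 1 in THP-1 labelled control, and no fold is given at so few reads. STAB1 (ENSG00000010327, chromosome 3, 52495338 to 52524495, plus strand), a clearance receptor of sinusoidal endothelium and some macrophages, did not pass it either. It had 8, 7 and 3 reads in THP-1 labelled DCBLD2, against 10, 8 and 3 reads in THP-1 labelled control. The ratio per read was 0.798, with an exact binomial 95% interval of 0.401 to 1.57 that covers counting error only, so no difference was detectable at this depth.

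**Figure D2:**
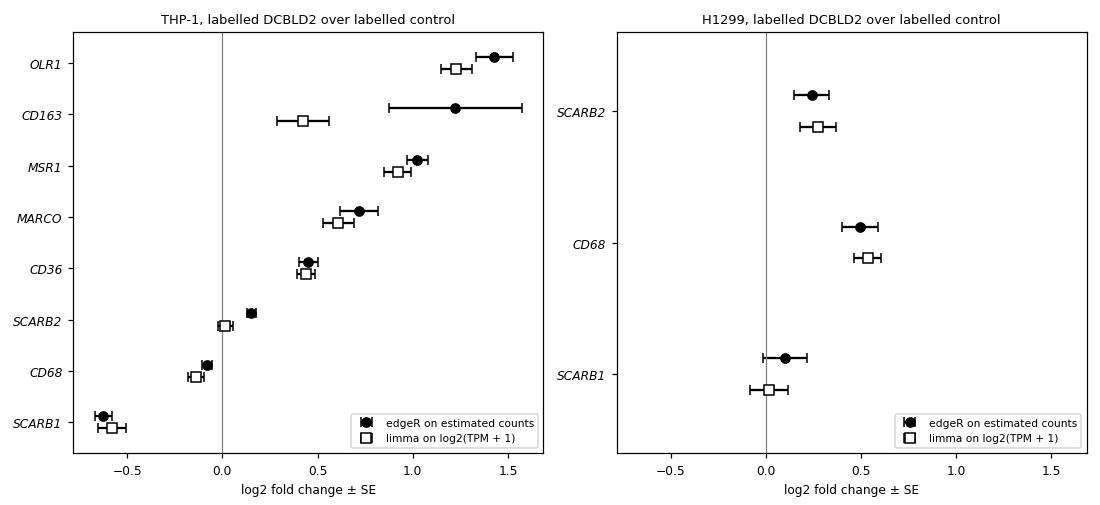
Log2 fold change (horizontal axis) of each tested receptor with bars of 1 SE, labelled DCBLD2 over labelled control, in THP-1 (left) and H1299 (right), by edgeR on estimated counts (filled circles) and limma on log2(TPM + 1) (open squares). In THP-1 OLR1, CD163, MSR1, MARCO and CD36 lie above 0 on both scales, and CD163 moves most between scales, at 1.22 and 0.42.

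The tumour cell comparison could be made for CD68, SCARB2 and SCARB1 alone, since the other 7 receptors did not pass the filter in H1299. CD68 was called higher, and 0 receptors were called lower, where 10.3% of 12773 genes were called higher and 10.6% lower. CD68 had 197, 200.5 and 196 TPM in H1299 labelled DCBLD2, against 138, 135 and 136 TPM in H1299 labelled control. Its groups lay far apart for their width, and 17.6% of genes had groups apart in the higher direction. CD68 changed by 0.50 ± 0.09 (SE) on the log2 scale, at an edgeR adjusted p of 0.00871, or 0.0504 without labelled DCBLD2 replicate 2.

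SCARB2 had 50.8, 58.1 and 52.4 TPM in H1299 labelled DCBLD2, against 44.6, 41.8 and 46.5 TPM in H1299 labelled control. The TPM ranges did not overlap, yet the test did not call it, at a log2 fold change of 0.24 ± 0.09 (SE) and an adjusted p of 0.0922 by edgeR. In a fit of all 12 libraries, which shared the spread with THP-1, the edgeR adjusted p was 0.00595. That fit called 5056 H1299 genes in place of 2669, and 14 of 15 alternatives left SCARB2 uncalled. SCARB1 had 67.0, 69.9 and 65.5 TPM in H1299 labelled DCBLD2, against 59.9, 66.4 and 74.7 TPM in H1299 labelled control, so its groups overlapped. The log2 difference for SCARB1 was 0.10 ± 0.12 (SE), at an edgeR adjusted p of 0.549. CD36 had 7 reads over H1299 labelled DCBLD2 and 13 over H1299 labelled control, a ratio per read with a 95% interval of 0.211 to 1.69. STAB1 had 7 reads over H1299 labelled DCBLD2 and 15 over H1299 labelled control, with an interval of 0.187 to 1.41.

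The change in THP-1 minus the change in H1299 was tested across all 12 libraries. Both lines shared a spread per gene in this fit, although replicates differed more in H1299. Results are given for the 3 receptors with a mean of at least 10 counts in every group, a limit set after the data were seen. CD36, MSR1, MARCO, CD163 and OLR1 were also in the fit, with few or no reads in H1299, and were not called. The label is that of the cells themselves in H1299 and of the cells kept with them in THP-1. Cell line and kind of exposure thus differ together. The difference was called for SCARB1 and CD68, both more negative in THP-1, where 19.5% of 14244 genes were called in that direction and 19.3% in the other. It was -0.74 ± 0.13 (SE) on the log2 scale for SCARB1, at an edgeR adjusted p of 5.11e-04. For CD68 it was -0.59 ± 0.09 (SE), with an adjusted p of 1.92e-04. For SCARB2 it was -0.10 ± 0.09 (SE) with an adjusted p of 0.376, and it was called on both TPM scales, at -0.26.

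The line comparison set THP-1 labelled control against H1299 labelled control, which differ in cell line, PMA and exposure to H1299 together, so these cannot be told apart. MSR1, MARCO, CD36 and OLR1, absent or nearly absent in H1299, set the lines furthest apart. CD68 and SCARB2 were higher in THP-1 by smaller factors. Of 7 receptors tested, 6 were called higher and 0 lower, where 41.7% of 13892 genes were called higher and 43.1% lower. MSR1, MARCO, CD36 and OLR1 passed the filter only through THP-1, and so had to differ between the lines.

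MARCO had 409 reads over the 3 libraries of THP-1 labelled control and 0 over H1299 labelled control, so at least 133-fold higher when 3 counts over the group are taken as the floor. OLR1 had 375 reads over THP-1 labelled control and 0 over H1299 labelled control, and by the same floor was at least 122-fold higher. MSR1 had 1794 reads over THP-1 labelled control and 3 over H1299 labelled control, a ratio per read of 583 with an exact binomial 95% interval of 199 to 2832. CD36 had 1606 reads over THP-1 labelled control and 13 over H1299 labelled control, a ratio per read of 121 with an interval of 70.3 to 227. These 4 receptors thus stood near or at 0 in the carcinoma line. CD163 had 37 reads over THP-1 labelled control and 1 over H1299 labelled control, a ratio of 36.1 with an interval of 6.09 to 1464, and did not pass the filter.

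The log2 fold change of CD68 between the lines was 1.62 ± 0.06 (SE), at an edgeR adjusted p of 1.81e-08. That of SCARB2 was 0.99 ± 0.06 (SE), with an adjusted p of 3.37e-07. SCARB1 was not called in counts, at -0.01 ± 0.11 (SE) and an adjusted p of 0.940. Its TPM was lower in THP-1, at 44.8 ± 3.43 against 67.0 ± 7.45 in H1299 (SD, n = 3 each), with no overlap of ranges, as for 49.6% of genes in the lower direction. On log2(TPM + 1) the difference was -0.57, with an adjusted p of 8.32e-04 by limma, on a scale where the median of all genes was -0.26.

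Genes around the receptors were followed in 6 lists, and each gene named from them as higher or lower passed the test. Their log2 fold changes had SEs of 0.01 to 0.06 in THP-1 and 0.10 to 0.36 in H1299, with edgeR adjusted p-values of at most 4.50e-09 in THP-1 and 0.0487 in H1299. In THP-1 the other scavenger and uptake receptors moved in both directions, with 10 higher, 6 lower and 4 not called of 20 tested out of 28. Of the 13120 genes in the THP-1 test, 34.5% were called higher and 33.6% lower, the background for each of the 6 lists. CD14, the lipopolysaccharide co-receptor, averaged 319 ± 3.51 TPM in THP-1 labelled DCBLD2 and 115 ± 2.07 TPM in THP-1 labelled control (SD, n = 3 each), a log2 fold change of 1.49. TREM2, a receptor for lipids and apolipoproteins, had a log2 fold change of 2.78. LRP8, the reelin and apolipoprotein E receptor, averaged 73.5 TPM in THP-1 labelled DCBLD2 and 144 TPM in THP-1 labelled control (log2 fold change -0.92). LRP1, the endocytic receptor for remnants and proteases, averaged 27.0 TPM in THP-1 labelled DCBLD2 and 40.5 TPM in THP-1 labelled control (-0.56). The list's median was 0.25, against 0.00 over all genes.

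Partners of CD36 in fatty acid handling gave 10 higher, 10 lower and 3 not called of 23 in THP-1, with a median of 0.05, where all genes had 34.5% higher and 33.6% lower. PLIN2, which coats lipid droplets, averaged 164 ± 1.97 TPM in THP-1 labelled DCBLD2 and 338 ± 2.99 TPM in THP-1 labelled control (SD, n = 3 each), a log2 fold change of -1.01. FABP4, the fatty acid carrier of fat cells and macrophages, averaged 306 TPM in THP-1 labelled DCBLD2 and 132 TPM in THP-1 labelled control (log2 fold change 1.25). The tetraspanin CD81 was higher (0.48), and ACSL1, which activates fatty acids, was lower (-0.70). PLIN2 and CD36 thus ran in opposite directions.

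Sterol partners of SCARB1 gave 5 higher, 6 lower and 5 not called of 16 tested out of 17, with a median of -0.03, near the all-gene shares of 34.5% higher and 33.6% lower. NR1H3, a liver X receptor, averaged 118 ± 4.32 TPM in THP-1 labelled DCBLD2 and 268 ± 5.99 TPM in THP-1 labelled control (SD, n = 3 each). Its log2 fold change was -1.18. NPC1, which exports cholesterol from lysosomes, was lower (-1.09), as was the lysosomal acid lipase LIPA (-0.79). APOE, a secreted lipid carrier, was higher (0.61). Lysosomal partners of SCARB2 and CD68 gave 3 higher, 9 lower and 4 not called of 16, with a median of -0.19, beside the same all-gene shares. PSAP, the saposin precursor, was lower (-0.53), as were the sialic acid exporter SLC17A5 (-0.85) and the glycoprotein GPNMB (-0.62), and the transcription factor TFE3 was higher (0.28), a call lost with the common spread of H1299 (adjusted p of 0.156).

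Genes of the CD163 and haem axis gave 7 higher, 8 lower and 4 not called of 19 tested out of 22, with a median of -0.06, also near the all-gene shares of 34.5% higher and 33.6% lower. RHBDF2, which escorts the protease ADAM17 that sheds CD163, was lower (-0.60), and so was the transcription factor MAF (-0.90). NFE2L2, the oxidant-response factor, was higher (0.59), as was the glucocorticoid receptor NR3C1 (0.49). Regulators tied to MSR1, MARCO and OLR1 gave 5 higher, 7 lower and 5 not called of 17, with a median of 0.01, beside the same all-gene shares. The growth factor CSF1 averaged 813 TPM in THP-1 labelled DCBLD2 and 1461 TPM in THP-1 labelled control (-0.78). Its receptor CSF1R averaged 422 TPM in THP-1 labelled DCBLD2 and 318 TPM in THP-1 labelled control (0.44). EGR2 was lower (-0.81), and SPI1, which encodes the factor that binds the PU box, was higher (0.51).

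**Figure D3:**
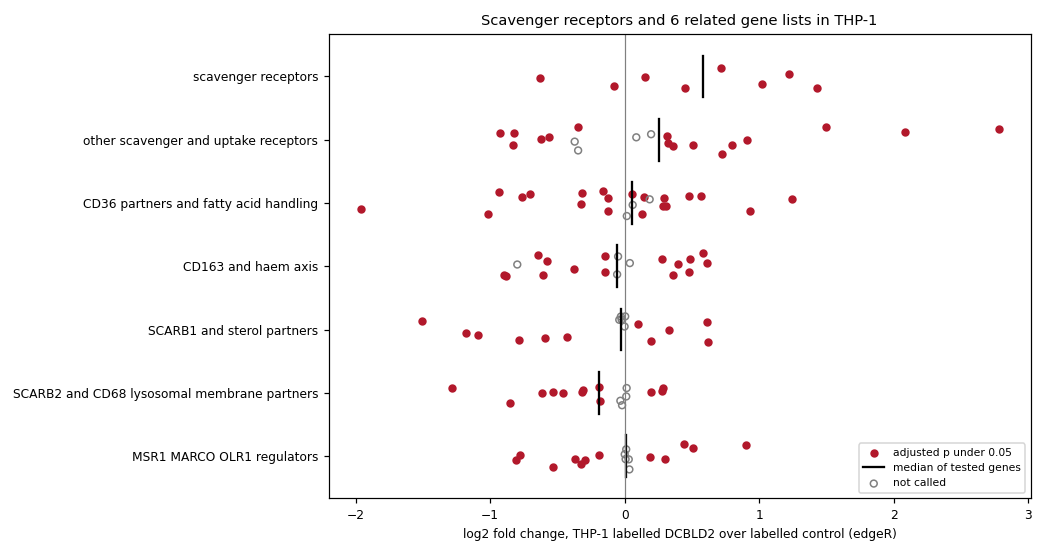
Log2 fold change by edgeR (horizontal axis), THP-1 labelled DCBLD2 over labelled control, of each tested gene in the receptors and 6 lists, filled where called, with a black line at the list's median. The CD36 partners are split 10 higher to 10 lower, and the lysosomal partners have 3 higher and 9 lower, where all genes tested have 34.5% higher and 33.6% lower.

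In H1299 the lists other than the CD36 partners had 1 to 4 called genes each. Over all genes tested in H1299, 10.3% were higher and 10.6% lower. The other uptake receptors gave 2 higher and 10 not called of 12 tested, with LRP1 at a log2 fold change of 1.14 and the CD163 relative CD163L1 at 0.51. Of 19 CD36 partners 1 was higher and 9 lower, with the retinoid receptor RXRA at -1.55 and the kinase LYN at -0.72. Of 16 haem axis genes 4 were higher, with the clock gene PER1 at 1.03 and the ferritin light chain FTL at 0.59. Of 13 sterol genes 2 were higher, NCEH1 at 0.79 and NPC1 at 0.33. Of 16 lysosomal genes 1 was higher and 3 lower, with the lysosomal channel gene MCOLN1 at -0.62, and of 11 regulators IRF5 alone was called, lower at -1.32. Without labelled DCBLD2 replicate 2, CD163L1, FTL, NCEH1, NPC1, MCOLN1 and IRF5 lost their calls, with adjusted p-values of 0.0503 to 0.188 by edgeR. Calls of CD163L1, NPC1 or IRF5 were also lost without labelled DCBLD2 replicate 1 or 3 or labelled control replicate 2 or 3, with adjusted p-values of 0.0565 to 0.130.

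The genes with profiles nearest to each receptor were found among 11797 genes over the 12 libraries, by Euclidean distance of centred log2(CPM + 1). Centring was over both lines, so a near profile includes a like difference between THP-1 and H1299. Some gene is nearest in any case, and shared regulation was not tested. For CD36 the nearest were OSCAR at 0.31 and MCEMP1 at 0.31. For MARCO they were FCGR2B at 0.26 and SNAI3 at 0.42, for MSR1 CARD9 at 0.46 and TUSC1 at 0.51, and for OLR1 ATP10A at 0.42 and AZU1 at 0.53. The receptors present in both lines lay near other genes: KCTD13 (0.20) and PISD (0.25) for CD68, CHMP5 (0.21) and PNRC2 (0.29) for SCARB2, and ATP5F1A (0.24) and NUP210 (0.34) for SCARB1.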

How the data were processed

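Per the labels' protocols, Trizol was used for RNA, and mRNA was enriched before NEBNext Ultra library construction. Per the submitters' processing notes, RSEM, HISAT2, StringTie 1.3.1, fastp 0.18.0 and Bowtie2 2.2.8 were used with build hg38. No source used here names the annotation release or strand handling, so the counts of overlapping genes are uncertain. Both TPM values and estimated counts were deposited by the authors, and between 12.0% and 13.4% of the deposited estimated counts per library were not whole. The libraries held 18606739 to 26787853 estimated reads in THP-1 and 14578887 to 23388187 in H1299.

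Rounded estimated counts went into edgeR 4.0.16 under R 4.3.3 (quasi-likelihood test, TMM scaling), with the filterByExpr minimum of 10 counts, and Benjamini-Hochberg adjustment over all genes tested. Genes were called at an adjusted p under 0.05. THP-1, H1299 and the line comparison had fits of 6 libraries each, and the difference of responses used all 12. SE was the log2 fold change over the root of the F statistic. Counting intervals are exact binomial at 95%, the floor is 3 counts over a group, and both cover counting error only. The edgeR fits and the log2(TPM + 1) fits were also run on simulated counts. The simulation gave both lines the same spread, below the common spread of H1299, and used no gene lengths. It therefore does not stand for the spread of H1299 or for TPM.

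Alternatives were the replicate block, each library left out, DESeq2 1.42.0, its size factors in edgeR, other filters, robust spread, limma 3.58.1 on log2(TPM + 1) and log2(TPM + 0.1), all 12 libraries in 1 fit, the common spread of H1299 for THP-1, and THP-1 labelled DCBLD2 against H1299 labelled DCBLD2. The receptors and lists were chosen with earlier results of these data known. Named beside the receptors are DCBLD2, up to 4 called genes per list in THP-1 and up to 2 in H1299 with the smallest p-values, the 2 nearest profiles per receptor with at least 5 CPM in a group, and marker genes chosen after their values were seen. Of the genes this rule gives, 1 is not reported here. The larger of 2 CSF2RA rows was used. Positions come from GENCODE 29, in which 98.9% of identifiers were found, and promoter sequences from RefSeq (GRCh38.p14).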

Additional observations from a re-analysis of the deposited data

Results flagged for a closer look

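The changes of SCARB1 and CD68 with the DCBLD2 label differed between the cell lines by a test of the difference itself. Both were more negative in THP-1, where 19.5% of 14244 genes were called in that direction and 19.3% in the other. The label names the cells' own state in H1299, but in THP-1 it names the H1299 cells they were kept with. Cell line and kind of exposure therefore cannot be told apart. For SCARB1 the change in THP-1 minus the change in H1299 was -0.74 on the log2 scale, and it stayed between -0.77 and -0.57 under 20 alternatives, all of which called it in edgeR, DESeq2 or limma. SCARB1 was lower in 3 of 3 THP-1 libraries labelled DCBLD2 than in any THP-1 library labelled control, and its groups overlapped in H1299. In THP-1, 35.0% of genes were separated in the lower direction. For CD68 the difference was -0.59, between -0.68 and -0.46 under the same 20 alternatives, all of which called it. For both receptors, the test and all 20 alternatives shared a spread per gene between the lines. They therefore do not show whether the calls depend on that sharing, and replicates differed more in H1299. CD68 was higher in 3 of 3 H1299 libraries labelled DCBLD2 than in any H1299 library labelled control, and its groups overlapped in THP-1. In H1299, 17.6% of genes were separated in the higher direction.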

How the results depend on the processing

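The direction of each THP-1 and H1299 receptor call was the same under every alternative run. Over the alternatives, 323 receptor results kept direction and side of the threshold, 9 lost their call, 6 gained one and 7 reversed. In THP-1 the receptors called lower were 1 in place of 2 with all 12 libraries in 1 fit and with the common spread of H1299, and 1 to 2 with a library left out. CD68 was the call lost each time, with adjusted p-values of 0.0909 to 0.728. SCARB2 in THP-1 lost its call on both TPM scales, in the fit of 12 (0.0596) and with the H1299 spread (0.491). The H1299 spread gave 4531 THP-1 calls over all genes in place of 8941. In H1299 the receptors called higher were 2 in the fit of 12 libraries, which called 5056 genes in place of 2669, and 0 to 1 with a library left out, when 514 to 3158 genes were called. The lowest of these counts was without labelled DCBLD2 replicate 2, and 1374 and 1649 genes were called without labelled DCBLD2 replicate 1 and labelled control replicate 3. Between the lines SCARB1 was called lower on both TPM scales and in THP-1 labelled DCBLD2 against H1299 labelled DCBLD2 (-0.69), so 1 receptor in place of 0 was lower in each. In the other alternatives it was not called. Its value there reversed to 0.055 by DESeq2 and 0.055 by DESeq2 size factors in edgeR, and was -0.10 to 0.095 with a library left out. The difference of responses of SCARB2 was -0.11 to 0.0079 with a library left out. The cause of these changes was not tested. Of the list genes named, LYN (adjusted p of 0.157 to 0.163), CD163L1 (0.104 to 0.111) and NPC1 (0.140 to 0.141) lost their H1299 calls on the TPM scales, NPC1 also with no filter on low counts (0.0513), and TFE3 lost its THP-1 call with the H1299 spread (0.156). Replicate numbers gave no clear sign of pairing, which 3 libraries per group cannot exclude. The deviations of libraries with the same number correlated at 0.02 to 0.05 in THP-1 and at -0.41 to -0.11 in H1299. In H1299 the largest correlations with a different number were 0.36 to 0.52. With the replicate block 8990 genes were called in THP-1, 1797 in H1299, 11664 between the lines and 4987 for the difference of responses. No receptor call changed with it, and CD163L1 (adjusted p of 0.0795) and NPC1 (0.139) lost theirs in H1299. Depth limits what can be said of CD163, MRC1 and STAB1.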
